A study of Aspergillus nidulans with 4 samples.

Results

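The aspyridone cluster of *Aspergillus nidulans* is a run of 8 neighbouring genes, AN8408 to AN8415, around *apdA* (AN8412), which codes for a synthase that joins a polyketide part to an amino acid. The genes were picked by their numbers, with the difference between the strains already known, and all 8 were found among the 10930 genes of the table the authors deposited. The comparison was between a strain lacking *pkaA*, the gene of a catalytic subunit of protein kinase A (the Δ*pkaA* strain, AN1358), and its parental strain (the WT, AN1405), with 2 samples each. The labels give no other allele of either strain, and the mutant is a single deletion strain. Both were grown at 28°C and 250 rpm in the rich medium YGV (2% glucose, 0.5% yeast extract) from a seed culture of 12 h at pH 3.3, and mycelium was taken after about 20 h of main culture.

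Fungal secondary metabolite clusters hold, side by side, the gene of a backbone synthase, genes of enzymes that modify its product, often a transporter, and often a transcription factor of their own. Aspyridones are pyridone alkaloids that a hybrid of a polyketide synthase and a nonribosomal peptide synthetase (PKS-NRPS) builds from malonyl units and tyrosine. An enoyl reductase coded outside the synthase works with it, and cytochromes P450 and other oxidases change the released product. The cluster is known as a silent one, little transcribed in ordinary laboratory culture, that was switched on by forced expression of the transcription factor gene inside it.

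The measure was the authors' mean normalized count, that is, reads per gene corrected for library size and averaged within the strain. Nearly every low mean could be written as whole reads of one library plus whole reads of another, each at a fixed value per read, and this gave back the reads of 2 libraries per strain, here called a and b. Recovery gave whole reads, to a tolerance of 6e-05, for all 4833 means up to 800 in Δ*pkaA* mycelium and for 99.9% of the 6542 means up to 1500 in the WT. Within a strain the 2 libraries differed by more than sampling noise, with a mean chi-square per gene of 3.50 in Δ*pkaA* mycelium and 11.6 in the WT over genes with a mean of at least 50, where sampling alone gives 1. Which library is which labelled sample cannot be told from the means. The deleted gene, *pkaA* (AN6305), held 79 and 69 reads in the Δ*pkaA* libraries, against 1892 and 1851 in the WT libraries. Its WT mean of 1869 lies above 1500, so the 99.9% does not cover it.

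All 8 cluster genes had higher means in Δ*pkaA* mycelium, between 3.35 and 621 times the WT mean. The genes of both cytochromes P450, the enoyl reductase and an FAD-dependent monooxygenase, AN8408 to AN8411, were at 78.0 to 621 times their WT means. In the WT they were nearly unread. The gene of the synthase and those of the exporter, the transcription factor and an acyl-CoA dehydrogenase, AN8412 to AN8415, were at 3.35 to 7.31 times their WT means. These WT means were 109.8 to 156 except for the exporter gene AN8413. That gene had a WT mean of 11.6 on 10 and 13 reads, near AN8411 with 7 and 8 reads. The reads were recovered in all 4 libraries for all 8 genes, and for each of them both Δ*pkaA* libraries lay above both WT libraries. Because this contrast was known when the genes were picked, their differences are given as a description with no test. As background, 17.9% of the 10545 genes with reads in either strain had a mean at least 2-fold higher, and 18.6% a mean at least 2-fold lower, in Δ*pkaA* mycelium. In 38.4% of the 3732 genes with recovered reads and an average of at least 10, both Δ*pkaA* libraries lay above both WT libraries. That set holds only means up to 800 in Δ*pkaA* mycelium and up to 1500 in the WT, so AN8414 and AN8415 lie outside it. These unequal limits leave out genes higher in Δ*pkaA* mycelium more readily, so 38.4% is not the share over all genes. Means at least 50-fold higher, as in 4 cluster genes, were found in 1.19% of the 10197 genes with reads in both strains. RNA from whole mycelium does not show whether more hyphae transcribed a gene or each transcribed it more.

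**Figure D1:**
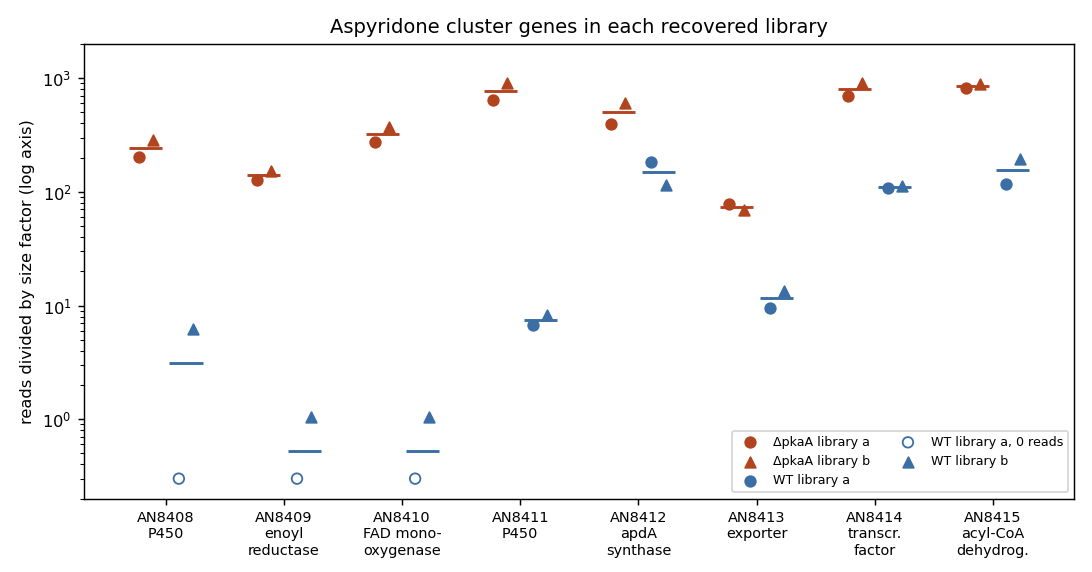
Reads divided by size factor (log axis) of the 8 cluster genes in libraries a (circles) and b (triangles) of the ΔpkaA strain (red, left of each pair) and the WT (blue, right); bars are the authors' strain means and open circles mark 0 reads. In every gene both ΔpkaA libraries lie above both WT libraries, and 3 genes have 0 reads in WT library a.

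The backbone synthase gene, *apdA* (AN8412), is listed from base 396316 to base 408251 on the plus strand. It had 402 and 598 reads in the Δ*pkaA* libraries, against 192 and 111 reads in the WT libraries. Its mean normalized count was 501 ± 152 in Δ*pkaA* mycelium and 149.7 ± 48.3 in the WT (SD, n = 2 each, as for the other cluster genes), a ratio of 3.35. This was the lowest ratio of the 8 genes, and the lower Δ*pkaA* library stood at 2.14 times the higher WT library. Thus the synthase was transcribed in both strains, and its libraries differed more within a strain than those of most genes. Library b of the Δ*pkaA* strain held 1.54 times the normalized reads of library a, a ratio reached by 0.650% of the 2923 genes of that strain with means of 50 to 800. In the WT, library b held 0.629 times the normalized reads of library a. The letters are set within each strain and do not pair libraries between strains.

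The transcription factor gene AN8414 lies beyond the exporter gene, from base 411565 to base 413853 on the plus strand. It is the regulator inside the cluster whose forced expression is known to switch the cluster on. The Δ*pkaA* libraries held 710 and 894 reads on it, against 112 and 108 in the WT libraries. The means were 803 ± 151 in Δ*pkaA* mycelium and 109.8 ± 3.70 in the WT, 7.31-fold higher in Δ*pkaA* mycelium. With 220 reads in all, the regulator gene was therefore read in the WT too, in both libraries to nearly the same level. Of the 370 genes with reads in both strains whose function text names a transcription factor, AN8414 had the 26th highest ratio.

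The genes of the 2 putative cytochrome P450 monooxygenases, AN8408 and AN8411, code for heme enzymes that add oxygen to a substrate. AN8408 had 207 and 279 reads in the Δ*pkaA* libraries, against 0 and 6 in the WT libraries. Its means were 243 ± 57.4 in Δ*pkaA* mycelium and 3.12 ± 4.42 in the WT. All WT reads of AN8408 came from library b, so that the SD of its WT libraries is larger than their mean. The ratio of 78.0 had a 95% interval of 37.0 to 222 (Clopper-Pearson, counting error only). AN8411 had 657 and 898 reads in the Δ*pkaA* libraries, against 7 and 8 in the WT libraries, with means of 779 ± 191 in Δ*pkaA* mycelium and 7.52 ± 1.15 in the WT. The ratio of AN8411 was 103.7 (counting interval 62.7 to 186). Both WT libraries thus held a few reads of AN8411, in nearly equal number. Of the 90 genes with reads in both strains whose function text names a cytochrome P450, AN8411 had the 4th highest ratio and AN8408 the 5th. Of 97 such genes outside the cluster with reads in either strain, 37 were at least 2-fold higher and 23 at least 2-fold lower in Δ*pkaA* mycelium. Among all genes with reads these shares were 17.9% and 18.6%.

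The enoyl reductase gene AN8409 and the gene of an FAD-dependent monooxygenase, AN8410, had the fewest WT reads and, on the strain means, the highest ratios. An enoyl reductase saturates double bonds of the growing polyketide chain. AN8409 had 130 and 150 reads in the Δ*pkaA* libraries, against 0 and 1 in the WT libraries, and its means were 140.1 ± 17.9 in Δ*pkaA* mycelium and 0.521 ± 0.736 in the WT. AN8410 had 279 and 366 reads in the Δ*pkaA* libraries, against 0 and 1 in the WT libraries, and its means were 323 ± 70.1 in Δ*pkaA* mycelium and 0.521 ± 0.736 in the WT. For each of these genes a single read stood behind the WT mean, and that read decided the size of the ratio. The ratio was 269 for AN8409, with a counting interval of 49.9 to 11114, and 621 for AN8410, with an interval of 116 to 25551. At this depth counting error alone thus left the upper end of both ratios nearly open, and the lower ends do not cover the spread between libraries. Without WT library a, the ratio was 39.0 for AN8408, 135 for AN8409 and 310.3 for AN8410. WT library a held 0 reads of all 3 genes, so leaving out WT library b gave no ratio. With each gene set to 3 reads in WT library a, the ratios were 84.8 for AN8408, 48.8 for AN8409 and 112 for AN8410. These values depend on that setting and are not lower bounds. For AN8408 the value lay above the 39.0 found with WT library b, which held 6 reads.

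The putative exporter gene AN8413 and the putative acyl-CoA dehydrogenase gene AN8415 complete the cluster. Exporters carry the product out of the hypha, and acyl-CoA dehydrogenases are flavin enzymes that put a double bond into an acyl chain. AN8413 had 80 and 68 reads in the Δ*pkaA* libraries, against 10 and 13 in the WT libraries. Its means were 73.8 ± 6.51 in Δ*pkaA* mycelium and 11.6 ± 2.80 in the WT, a ratio of 6.39. AN8413 was the only member whose reads per size factor were lower in Δ*pkaA* library b than in library a. AN8415 had 828 and 871 reads in the Δ*pkaA* libraries, against 122 and 188 in the WT libraries. Its means were 849 ± 53.0 in Δ*pkaA* mycelium and 156 ± 55.8 in the WT, a ratio of 5.43. Per kb of gene the mean of AN8415 was the highest of the cluster in both strains, although in Δ*pkaA* library b AN8411 stood above it.

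The log2 ratios of strain means thus fell into 2 sets with a gap between them. They lay between 6.28 and 9.28 for AN8408 to AN8411 and between 1.74 and 2.87 for AN8412 to AN8415. This division was made after the values were seen, and the median of the 8 log2 ratios, 4.58, falls in the gap and is near none of them. The width of the gap depends on the pseudocount, since with 10 added to each mean the first set lay between 3.83 and 5.49 and the second between 1.68 and 2.76. The median over the 10197 genes with reads in both strains was -0.01. By rank among those genes, AN8411 was the 70th highest and AN8408 the 87th. AN8409 and AN8410 ranked above them, but on a single WT read each, and with a pseudocount of 10 AN8411 had the highest and AN8409 the lowest ratio of these 4 genes. The other members ranked between the 511th (AN8414) and the 1024th (*apdA*).

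**Figure D2:**
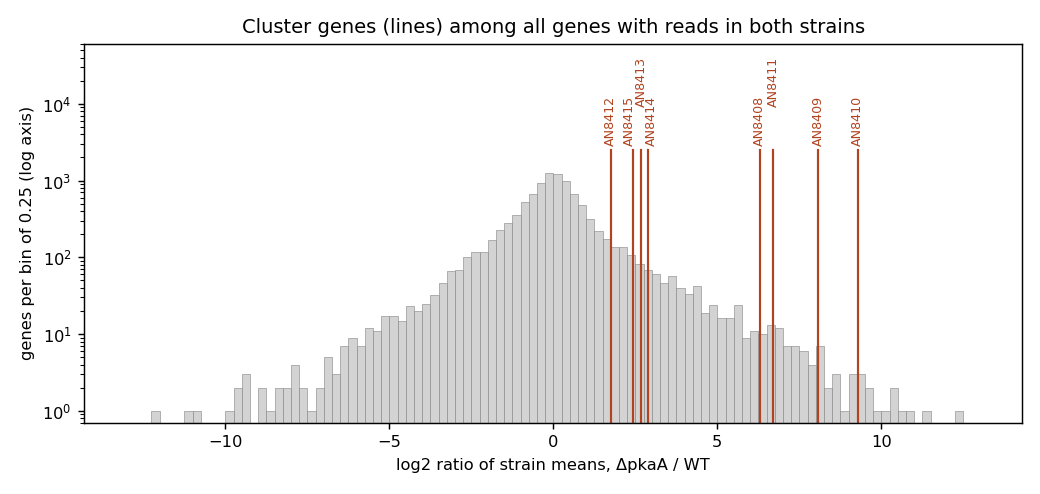
Number of genes per bin of 0.25 (log axis) by log2 ratio of the strain means, ΔpkaA over WT, for the 10197 genes with reads in both strains; red lines mark the 8 cluster genes. AN8412 to AN8415 stand between 1.74 and 2.87, and AN8408 to AN8411 between 6.28 and 9.28, in the upper tail.

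Levels of different genes were compared as mean normalized count per kb of gene, introns included. In the Δ*pkaA* strain the 8 genes lay between 42.0 per kb (*apdA*) and 473 per kb (AN8415), an 11.3-fold range. In the WT they lay between 0.283 per kb (AN8410) and 87.1 per kb (AN8415), a 307-fold range whose lower end is a single read. It was 192-fold in WT library b alone. In WT library a alone it was 44.5-fold with the 3 genes at 0 set to 3 reads, a value that depends on that setting. The members were therefore closer to each other in level in Δ*pkaA* mycelium than in the WT. AN8408, AN8409 and AN8410, at 124, 121 and 176 per kb in Δ*pkaA* mycelium, stood above *apdA* there, while in the WT they stood at 1.59, 0.448 and 0.283 per kb, below *apdA* at 12.5 per kb. Even in Δ*pkaA* mycelium the cluster was not among the strongly read genes. By level per kb over all 10930 genes, the members lay between percentiles 23.3 and 51.2 in Δ*pkaA* mycelium and between 5.39 and 29.2 in the WT.

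**Figure D3:**
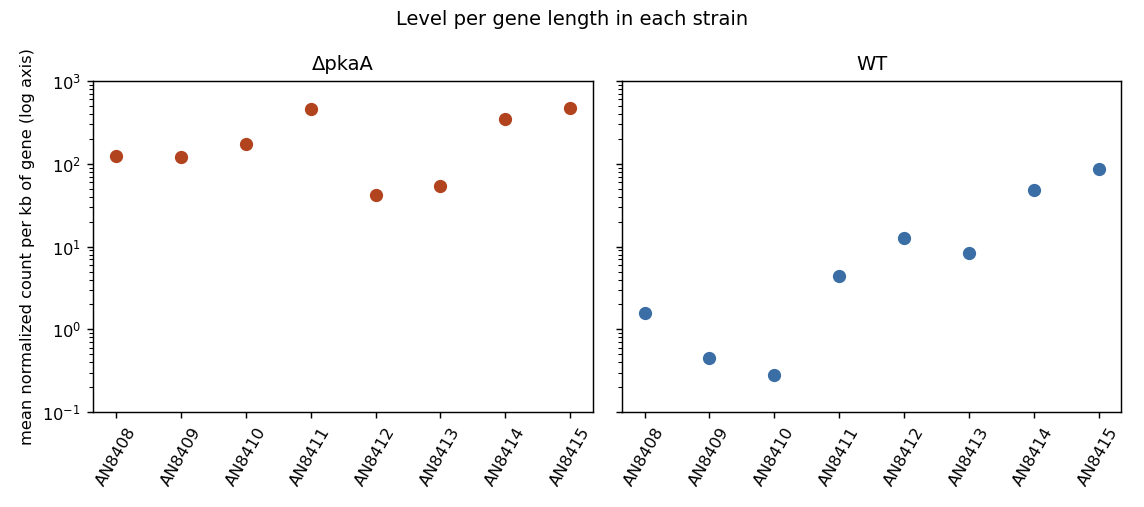
Mean normalized count per kb of gene (log axis) of the 8 cluster genes in the ΔpkaA strain (left) and the WT (right), points being the authors' strain means divided by gene length. The genes span an 11.3-fold range in the ΔpkaA strain and a 307-fold range in the WT (192-fold in WT library b alone), where AN8408 to AN8410 lie lowest, AN8409 and AN8410 on 1 read each.

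The makeup of the cluster's reads differed accordingly. AN8408 to AN8411 gave 38.7% and 41.1% of the cluster's normalized reads in the Δ*pkaA* libraries, against 1.58% and 3.67% in the WT libraries. The share of *apdA* was 12.2% and 14.5% in the Δ*pkaA* libraries, against 43.3% and 25.5% in the WT libraries. That of the transcription factor gene AN8414 stayed within a few points, at 21.6% and 21.7% in the Δ*pkaA* libraries, against 25.3% and 24.8% in the WT libraries. Summed over the 8 genes, the normalized reads were 3229 and 4199 in the Δ*pkaA* libraries, against 424 and 454 in the WT libraries. The summed means were 8.46-fold higher in Δ*pkaA* mycelium, and the cluster made up 0.0127% of the sum of all means there, against 0.00142% in the WT. In the Δ*pkaA* strain 7 of the 8 genes had more normalized reads in library b than in library a, at 0.883 to 1.54 times, where the median over 2923 genes was 0.994 times. For AN8409 and AN8415 that ratio was 1.20 and 1.09, which 10.8% and 25.5% of those genes reached. In the WT, too, 7 of the 8 genes had more normalized reads in library b. The part of differences between libraries in the strain difference was not tested beyond leaving each library out.

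The 8 genes span 33.984 kb, from base 387188 to base 421171 in the authors' coordinates on the AspGD reference, whose release is not given in the sources used here. RefSeq places all 8 on chromosome V in assembly ASM1142v1. There are 5 genes on the plus strand and 3 on the minus strand (AN8408, AN8411 and AN8413), and none of the listed genes overlap. Each minus strand gene faces away from a plus strand neighbour across a short gap, which makes 3 divergent pairs. These are AN8408 and AN8409 (366 bases apart), AN8411 and *apdA* (475 bases) and AN8413 and AN8414 (821 bases). Divergent neighbours share one intergenic region but did not always have like ratios. AN8411 and *apdA* differed by 4.95 in log2 ratio, and their order turned round, since per kb *apdA* stood at 0.0906 times AN8411 in Δ*pkaA* mycelium and at 2.80 times AN8411 in the WT. The exporter gene AN8413 and the regulator gene AN8414 kept nearly the same proportion, with AN8413 at 0.154 times AN8414 per kb in Δ*pkaA* mycelium and 0.177 times in the WT. AN8408 and AN8409 stood at nearly equal levels per kb in Δ*pkaA* mycelium, with a quotient of 1.03, whereas their 6 and 1 reads are too few to compare in the WT. The acyl-CoA dehydrogenase gene AN8415 lies apart from the rest, 5523 bases beyond AN8414. The library kit used does not mark strand, so reads from unlisted transcripts of the opposite strand could not be told apart from those of the genes.

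**Figure D4:**
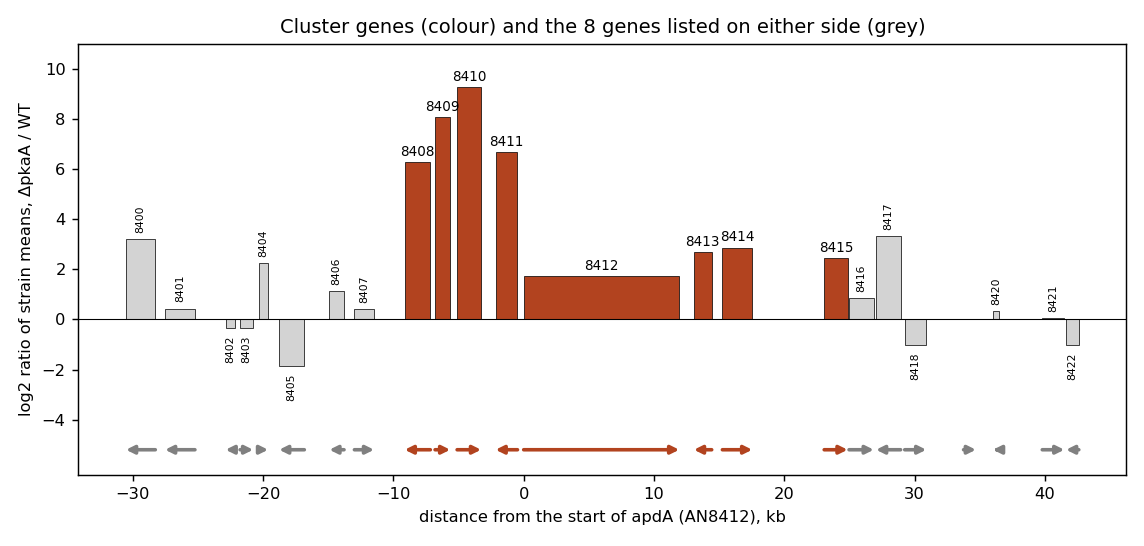
Log2 ratio of the strain means, ΔpkaA over WT, of the 8 cluster genes (red) and of the 8 genes listed on either side (grey), drawn to scale by distance in kb from the start of apdA; arrows below give the direction of transcription. AN8408, at 6.28, has AN8407, at 0.41, on its left, whereas on the right of AN8415 AN8416 stands at 0.86 and AN8417 at 3.32; AN8419 and AN8423, with a mean of 0 in the WT, have no bar.

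The genes just outside the numbered run were looked at once, with no test. On the left AN8407, of no stated function, had means of 2855 in Δ*pkaA* mycelium and 2148 in the WT, a ratio of 1.33. On the right AN8416, which resembles the yeast uracil transporter Fur4p and starts 113 bases after AN8415 ends, had 262 and 300 reads in the Δ*pkaA* libraries, against 157 and 154 in the WT libraries, a ratio of 1.81. Both were inside the 2-fold limit. The next gene, AN8417, with predicted hydrolase and racemase domains, had 534 and 637 reads in the Δ*pkaA* libraries, against 86 and 34 in the WT libraries, a ratio of 9.96, which was 16.6 without WT library a and 7.12 when library b was left out instead. Further out on the left, the sugar transporter gene AN8400 had a ratio of 9.18, which was 14.1 without WT library b. Of the 14 flanking genes with reads in both strains, 4 were at least 2-fold higher in Δ*pkaA* mycelium (AN8400, AN8404, AN8406 and AN8417) and 3 at least 2-fold lower (AN8405, AN8418 and AN8422), with a median log2 ratio of 0.37. Over all genes with reads, 17.9% were at least 2-fold higher and 18.6% at least 2-fold lower, and nothing particular to the flanks is read from counts this small. AN8404, AN8405 and AN8422 had means of at most 20 in both strains, and AN8418 and AN8422 came within 2-fold when some single libraries were left out, at 0.694 for AN8418 without WT library a and 0.757 for AN8422 without WT library b. None of the 14 reached the ratios of AN8408 to AN8411. On the strain means, however, AN8400 and AN8417 stood above all of AN8412 to AN8415, at 3.35 to 7.31. That order depended on the WT libraries. Without WT library a, AN8400 lay below AN8414, at 7.14, and without WT library b, AN8417 lay below AN8414, at 7.49.

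Backbone genes and the 2 other clusters followed here did not share one direction. Of the 28 genes with reads in both strains whose function text names a polyketide synthase, *apdA* had the 4th highest ratio. Outside the cluster, 7 of 27 such genes were at least 2-fold higher and 12 at least 2-fold lower in Δ*pkaA* mycelium. Among all genes with reads these shares were 17.9% and 18.6%. Of the 8 genes of the asperfuranone cluster (AN1029 to AN1036), which also holds its own regulator gene, 6 were at least 2-fold higher. Some of these had no reads in the WT. The 6 with reads in both strains were therefore not all the same genes, and had log2 ratios of 0.50 to 4.22. Of the 5 genes listed for the orsellinic acid cluster (AN7909 to AN7914), 0 were at least 2-fold higher and 4 at least 2-fold lower, with a median log2 ratio of -1.97. These clusters share their libraries with the aspyridone genes, and the differences between clusters were not tested.

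General regulators of secondary metabolism were followed as a list of 14 genes, with log2 ratios of -1.13 to 0.11. Of these, 0 were at least 2-fold higher and 1 at least 2-fold lower in Δ*pkaA* mycelium, where 17.9% and 18.6% of all genes with reads were. The genes of the velvet complex, a nuclear complex that ties secondary metabolism to light and development, had ratios of 0.748 for *laeA* (AN0807), 0.775 for *veA* (AN1052) and 0.756 for *velB* (AN0363). Their Δ*pkaA* means lie above 800, the upper limit of the limma fit there. The fit held 3 genes of the list, and 1 of them was called by limma at a Benjamini-Hochberg adjusted p below 0.05 and 2-fold or more, a rule that called 43.8% of the 3732 genes tested. It was *vosA* (AN1959), of a velvet protein of spores, with a log2 fold change of -1.13 ± 0.12 (standard error) on the log2(value + 1) scale and an adjusted p of 0.000394. For the LaeA-like methyltransferase gene *llmF* (AN6749) limma gave -0.44 ± 0.11, adjusted p 0.0127. For the histone methyltransferase gene *clrD* (AN1170) it gave -0.54 ± 0.15, adjusted p 0.0219. Neither kept an adjusted p below 0.05 when either Δ*pkaA* library was left out, with 0.0918 and 0.0823 for *llmF* and 0.0884 and 0.105 for *clrD*.

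Of 6 genes of precursor and cofactor supply, 1 was at least 2-fold higher in Δ*pkaA* mycelium and 0 were at least 2-fold lower, where 17.9% and 18.6% of all genes with reads were. The higher one was *accA* (AN6126), of the acetyl-CoA carboxylase that makes malonyl-CoA, with means of 13043 in Δ*pkaA* mycelium and 6257 in the WT, a ratio of 2.08. The ratio was 1.44 for *npgA* (AN6140), whose enzyme attaches the carrier arm that polyketide and peptide synthases need, and 1.53 for *sasA* (AN1222), of S-adenosylmethionine synthetase. On the path to the aromatic amino acids, the chorismate mutase gene AN6866 had a ratio of 1.38, the prephenate dehydratase gene AN11135, on the phenylalanine branch, 1.56, and the prephenate dehydrogenase gene AN5959, on the tyrosine branch, 0.641. None of these 6 genes entered the limma fit, which was kept to means up to 800 in Δ*pkaA* mycelium. Of 5 genes of development, 0 were at least 2-fold higher and 1 at least 2-fold lower, a share of 20.0% beside the 18.6% of all genes. The conidiation regulator gene *brlA* (AN0973) had 67 and 72 reads in the Δ*pkaA* libraries, against 60 and 74 in the WT libraries, and *abaA* (AN0422) had 130 and 138 reads in the Δ*pkaA* libraries, against 1261 and 667 in the WT libraries, a limma log2 fold change of -2.77 ± 0.26 with an adjusted p of 0.000214. The ratios of the others were 0.553 for *nsdD*, 1.45 for *steA* and 1.72 for *wetA*. The part of development in the levels of the cluster was not tested.

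The genes whose strain means were nearest to those of *apdA*, by distance on the log2(value + 1) scale over the 2 strain means, were AN0666 (distance 0.011), AN5381 (0.071) and AN10397 (0.13). AN0666, with predicted hydrolase activity, had means of 499.9 in Δ*pkaA* mycelium and 149 in the WT.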

How the data were processed

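Total RNA of 2 samples per strain was made into TruSeq v2 libraries. The authors aligned reads with Bowtie2 to the AspGD reference and used HTSeq and DESeq, versions and genome release being not given in the sources used here. Per the labels each sample was run as 2 technical replicates; their handling is not stated. The deposited signal is the authors' mean normalized count per strain, beside the gene's start and stop. Columns were assigned to strains by the heading over these columns in a supplementary table. The deposited table also holds the authors' fold changes, p-values and q-values, which were not used. A further deposited table of another comparison was not used because the sources do not say which libraries it holds.

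Steps were fitted to the low means, giving size factors of 1.02 and 0.982 (Δ*pkaA*) and 1.04 and 0.960 (WT). A pair of read numbers was accepted when it was the only one within the tolerance with library values at most 8-fold apart, allowing 12 further reads. For AN8411 and AN8414 this bound set aside a second solution, with the Δ*pkaA* libraries further apart. AN8414 and AN8415 lie above 800 in the Δ*pkaA* strain and stayed out of the fit. Recovery and fit were tested on simulated data. Limma with a mean-variance trend was fitted on log2(value + 1) for 3732 genes with recovered reads and an average of at least 10. Their means were at most 800 in the Δ*pkaA* strain and at most 1500 in the WT. The fit called 1633 genes, 767 with higher and 866 with lower values in Δ*pkaA*. With limits that differ between the strains, the fit does not cover both directions alike. Its p-values measure only the spread between these libraries, which may be technical in part.

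The rule for named genes took the 8 cluster genes, 8 numbers on either side, fixed lists of regulators, precursor genes and developmental genes, 2 other clusters and the 3 genes nearest to *apdA*. The members and lists were chosen with earlier results of these data known. Alternatives were 3 scalings, pseudocounts, fold limits, filters and leaving out each library. The fit used limma 3.58.1 under R 4.3.3, and all else Python 3.11.15 with SciPy 1.17.1, pandas 2.3.3, matplotlib 3.10.9 and NumPy 2.4.6.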

Additional observations from a re-analysis of the deposited data

How the results depend on the processing

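All 8 cluster genes had higher means in the Δ*pkaA* strain under each alternative that gave a value, and all 8 stayed at least 2-fold higher under the scalings, the pseudocounts and without any library, while 7 were at least 4-fold higher. With a pseudocount of 10 the median log2 ratio of the 8 genes fell to 3.30, against 4.58 without one, since 4 of the WT means are below 10. Without each library in turn the median was 4.06 to 4.90. The scalings moved all log2 ratios by -0.02 to 0.08. On the same genes the limma fit called 1632 with a pseudocount of 0.5 and 1473 with one of 10, against 1633. On changed sets of genes it called 1189 (average of at least 50) and 1831 (no filter on low values). The log2 fold change of *brlA* was 0.06 in limma, with an adjusted p of 0.846, and turned to -0.02 without Δ*pkaA* library b and to -0.15 without WT library a, with 0.27 without WT library b as the highest. That of *wetA* was 0.76, with an adjusted p of 0.0299, which was 0.0751 and 0.221 without Δ*pkaA* library a and b. No paired analysis was possible because the columns are strain means and carry no replicate number. EdgeR and DESeq2 were planned on the recovered reads and not run, since count models were kept to columns deposited as counts or made of whole reads of one library, and these columns are means of 2. Depth limits the WT level of AN8408 to AN8411, which rests on 23 reads in all, and intervals cover counting error only.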
